A study of Solenopsis invicta with 52 samples.

Results

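The 200 gaster-restricted genes described here were selected on their measured level in the gaster relative to the brain, in minor workers of Solenopsis invicta, the red imported fire ant. They were taken from 6430 genes with a mean of at least 10 CPM (counts relative to a library's total in genes, scaled to 1e6) in each of 4 gaster groups, out of 16314 genes in the files. For each gene the mean log2(CPM + 0.5) over 28 brain libraries was subtracted from the mean over 24 gaster libraries, and the 200 largest differences were kept. A block of 1007 adjacent file rows was left out by the rule. The tissue levels therefore chose the genes and are given as a description, whereas genotype, origin and host played no part in the choice.

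The gaster is the swollen rear part of an ant's abdomen, behind the waist. In workers it holds the crop and midgut, most of the fat body, and the sting with its venom and Dufour's glands, so that a gaster RNA sample mixes many cell types. In such a bulk sample, fewer cells of a type and less RNA per cell cannot be told apart. The supergene is a large non-recombining region of a chromosome with the haplotypes SB and Sb. Colonies with a single queen are called monogyne and those with several are called polygyne, and Sb is found in polygyne colonies.

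RNA was sequenced from 32 workers, of which 20 gave both tissues. All had been moved as dark pupae into host colonies. Sampling followed 16 days after the move, when the adults were 14 to 16 days old and weighed 0.6 to 0.9 mg. Each host held 250 workers, with 1 queen in monogyne and 2 in polygyne hosts, and received 25 to 40 pupae. The mBB workers had the SB/SB genotype and a monogyne origin and were placed in monogyne hosts. The mpBB workers had the same genotype and origin but were placed in polygyne hosts. The pBB workers (SB/SB) and the pBL workers (SB/Sb) both had a polygyne origin and a polygyne host. There were 7 brains and 6 gasters per group. All workers were thus transplanted, in all groups, and no SB/Sb worker was placed in a monogyne host. A stock colony was used once per treatment, so the libraries of a group stand for different colonies.

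Counts in genes were 30.2 to 78.0 M per gaster and 14.5 to 70.04 M per brain. Gaster and brain libraries were made with different kits, so that the tissue difference also carries any difference between the kits. Brain mBB replicate 4, pBL replicate 2 and pBL replicate 6 lay apart from the other brains in their correlation to them, and no gaster did. Gaster pBB replicate 1 had the fewest counts of the gasters, 30.2 M, and the most unmapped reads, 53.4%. Its median correlation to the other gasters was the lowest, at 0.9753. An alternative fit left it out. The identifiers are not paired with names in the files, and 0 of the 16314 matched the table of gene names, so the genes are given by identifier and without roles. For the same reason the tissue labels were not checked against markers.

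The genes were very abundant in gaster and near the lower end in brain. Their mean gaster level was 74.04 to 21924 CPM, with a median of 406 CPM against 44.4 CPM over the 6430 genes. Of the 200, 190 reached 100 CPM and 50 reached 1000 CPM in gaster. Their mean brain level was 0.0471 to 61.1 CPM, with a median of 0.537 CPM against 55.5 CPM over the 6430 genes. In brain 135 of them were under 1 CPM and 14 were at 5 CPM or more.

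**Figure D1:**
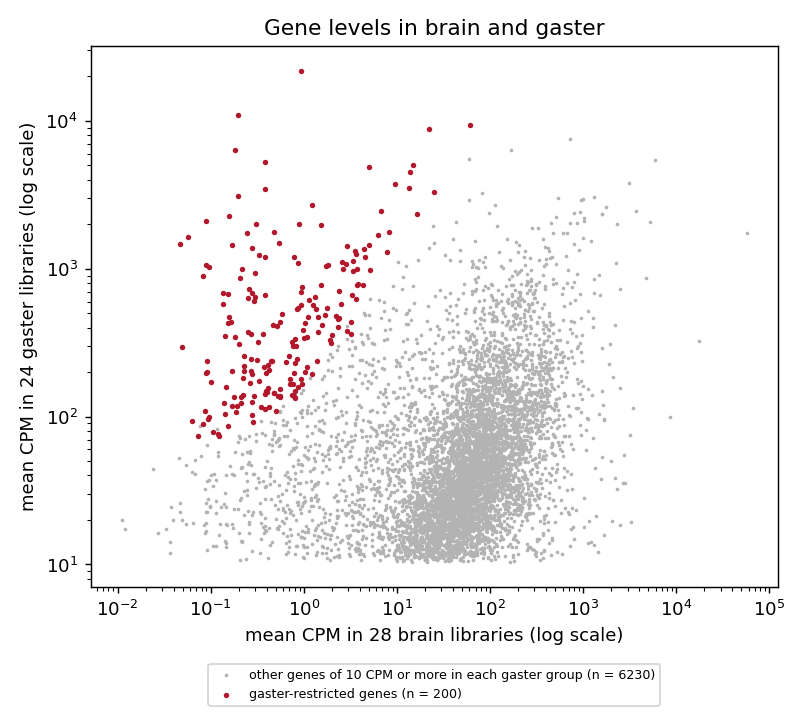
Mean level of each gene in the 28 brain libraries (horizontal axis, CPM, log scale) against its mean in the 24 gaster libraries (vertical axis, CPM, log scale). The 200 gaster-restricted genes (red) lie along the upper left edge of the 6430 genes by construction, and extend from a brain mean of 0.0471 CPM to 61.1 CPM.

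The tissue difference ran from 6.75 to 13.93 on the log2 scale, with a median of 7.98. The largest was that of SINVBB1_00886, at 13.93, followed by SINVBB1_01824 at 13.81 and SINVBB1_07652 at 13.11. The choice had no natural boundary. The last genes inside it, SINVBB1_14348 and SINVBB1_06807, had differences of 6.764 and 6.752, and the next genes outside it, SINVBB1_03500 and SINVBB1_11812, had 6.748 and 6.745. A difference on the log2(CPM + 0.5) scale understates the change of genes that are nearly silent in brain.

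None of the 200 was at 0 counts in every brain. At least 1 count was present in all 28 brains for 121 of them, and 4 had no count in 14 or more brains. In gaster every library held counts for all 200.

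SINVBB1_00886 was the most abundant gene, at 15059 CPM in the lowest gaster, 21216 CPM in the median one and 29949 CPM in the highest. Its brain group means were 0.778 to 1.05 CPM. SINVBB1_01824 followed with a mean of 10991 CPM, SINVBB1_07647 with 9319 CPM, SINVBB1_00811 with 8775 CPM and SINVBB1_07652 with 6329 CPM. In brain the highest means were those of SINVBB1_07647, at 61.1 CPM, and SINVBB1_11165, at 24.7 CPM. The counts were concentrated in few genes. SINVBB1_00886 alone held 10.9% of the summed level of the 200, the top 10 held 40.2% and the top 50 held 74.3%.

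The 200 genes took 17.7% to 21.7% of all gene counts in a gaster, with a mean of 20.1% ± 1.07 (SD, n = 24). The share in mBB was 17.7%, 20.5% and 21.7% in the lowest, median and highest gaster, with a mean of 20.2% ± 1.39 (SD, n = 6). It averaged 19.7% ± 0.918 (SD, n = 6) in mpBB, 20.6% ± 0.606 (SD, n = 6) in pBB and 19.7% ± 1.23 (SD, n = 6) in pBL. The ranges of the 4 groups overlapped, and the group means differed by less than the SD of mBB or pBL.

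**Figure D2:**
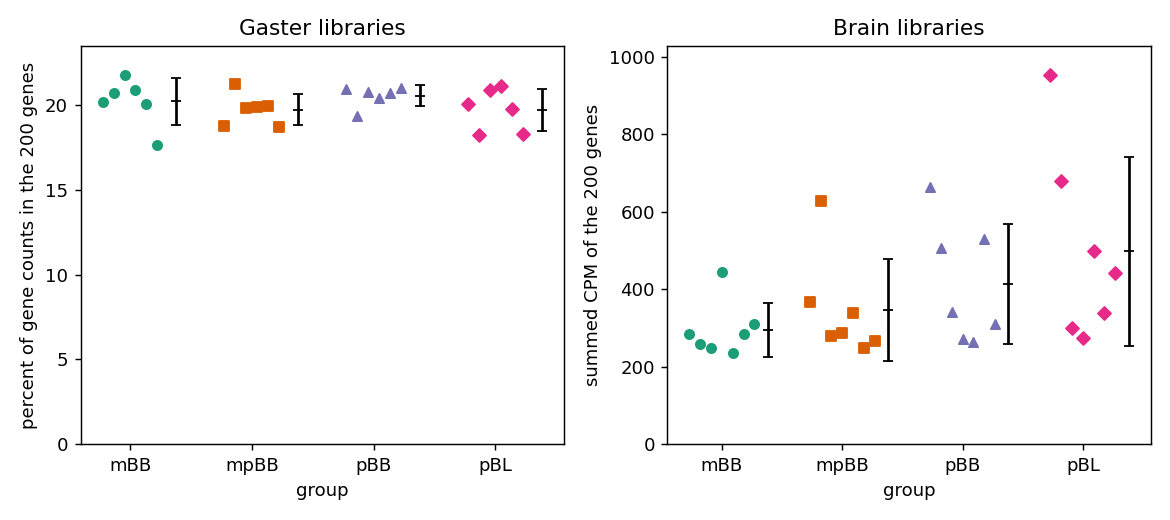
Left, percent of gene counts held by the 200 genes in each gaster library (6 per group). Right, their summed CPM in each brain library (7 per group). Points are libraries in order of replicate number, and the bar beside each group shows mean ± SD. The gaster shares stay between 17.7% and 21.7%, and the brain sums reach from 235 to 952 CPM.

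The summed level in brain was 235 to 952 CPM, with a mean of 388 ± 172 CPM (SD, n = 28). It averaged 295 ± 70.6 CPM in mBB, 346 ± 132 CPM in mpBB, 413 ± 154 CPM in pBB and 498 ± 244 CPM in pBL (SD, n = 7 each). The groups overlapped, and the spread within pBL was larger than the step from pBB to pBL. Single libraries carried the high values. Brain pBL replicate 1 reached 952 CPM, of which SINVBB1_00811 alone gave 217 CPM, and pBL replicate 2, pBB replicate 1 and mpBB replicate 11 reached 680, 664 and 629 CPM.

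In brain pBL replicate 2, which lay apart from the other brains, 122 of the 200 genes stood at over 3 times their brain median. Whether material from outside the brain entered these libraries was not tested. In the 20 workers with both tissues the summed gaster level was 211 to 925 times the brain level, with a median of 617 times.

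The comparison of pBL with pBB asks what the Sb haplotype does in workers that share origin and host. In gaster no gaster-restricted gene passed edgeR's quasi-likelihood test at an adjusted p of 0.05, against 0.596% of the 11574 genes tested. At an unadjusted p under 0.05 stood 12 of the 200, 3 higher and 9 lower in pBL, against 5.24% of all genes. With DESeq2 1 of the 200 passed at the same threshold, against 0.933% of all genes, and 12 had an unadjusted p under 0.05, against 5.83%. The 200 genes leaned down, with 79 higher and 121 lower and a median log2 fold change of -0.09. Without replicate 8 of pBB and pBL the split was 102 higher and 98 lower, so the lean rested on those libraries. Fits that kept them and took up the numbering of workers leaned down too. A covariate for workers numbered under 140 gave 73 higher and 127 lower, and a block for the replicate number 77 and 123. At an unadjusted p under 0.05 (edgeR) stood 19 (16 lower) and 24 (18 lower) of the 200, against 7.49% and 7.61% of all genes. The changes of the main fit ran from -1.19 to 2.71, and 3 of the 200, or 1.5%, passed 1 in either direction, against 2.81% of all genes. All genes tested include many at lower levels than the 200. With only genes over 1 CPM in at least 6 libraries, 3 of the 200 passed 1, against 1.34% of all genes.

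The largest of these changes was that of SINVBB1_09071. Its lowest, median and highest gaster level in pBL was 564, 824 and 1246 CPM, with a mean of 851 ± 291 CPM (SD, n = 6). In pBB these values were 24.6, 135 and 200.5 CPM, with a mean of 129 ± 57.9 CPM (SD, n = 6). The mBB gasters ranged from 25.3 to 473 CPM and the mpBB gasters from 19.4 to 413 CPM. Every SB/Sb gaster was thus above every SB/SB gaster of the study, and no SB/SB group stood apart from the others.

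The log2 fold change of SINVBB1_09071 was 2.71 ± 0.68 (SE), and its adjusted p in edgeR's quasi-likelihood fit, 0.0875, missed the threshold. With a block for the replicate number, which pairs pBB and pBL libraries, it was 2.86 ± 0.42 with an adjusted p of 0.0232, and the count of called gaster-restricted genes went from 0 to 1. Over all alternatives its adjusted p ran from 0.00388, with only the compared groups in the fit, to 0.451, within the workers numbered under 140. All of these alternatives kept it higher in pBL. In the host and origin comparisons, which involve SB/SB workers only, its log2 fold changes were -0.02 ± 0.64 and -0.14 ± 0.64. Their signs were not stable: within workers numbered under and over 140 they were 0.34 and -0.08 by host and 1.24 and -0.85 by origin, and with the number as a covariate 0.06 and 0.32.

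In brain SINVBB1_09071 was at a much lower level, and its difference by genotype did not pass. Its lowest, median and highest brain level was 0.731, 1.14 and 2.76 CPM in pBL and 0.127, 0.413 and 1.04 CPM in pBB. The groups overlapped, and the log2 fold change was 1.65 ± 0.49 (adjusted p 0.270, edgeR). Without brain mBB replicate 4, pBL replicate 2 and pBL replicate 6 it was 1.21 with an adjusted p of 0.765.

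In the opposite direction stood SINVBB1_08872. Its gaster level was 787, 1083 and 1256 CPM in the lowest, median and highest pBL library and 1313, 1454 and 1839 CPM in pBB. These groups did not overlap, with means of 1075 ± 177 and 1511 ± 199 CPM (SD, n = 6 each). The log2 fold change was -0.51 ± 0.15 (adjusted p 0.235, edgeR). The mBB gasters, which are SB/SB, ran from 764 to 1255 CPM and overlapped the pBL range.

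**Figure D3:**
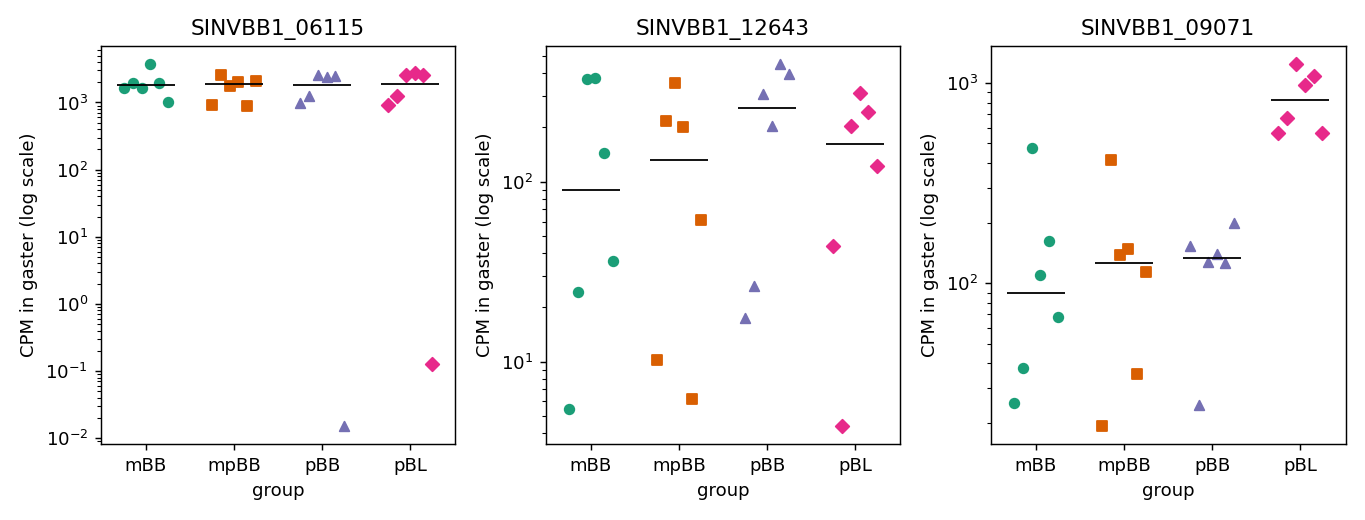
Level of 3 gaster-restricted genes in each gaster library (CPM, log scale), by group, with points in order of replicate number and a line at the group median. SINVBB1_06115 is near 0 in 1 pBB and 1 pBL library, SINVBB1_12643 spreads widely in all groups, and SINVBB1_09071 is higher in all pBL libraries (564 to 1246 CPM) than in all others (19.4 to 473 CPM).

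The comparison of mpBB with mBB addresses the host colony, for SB/SB workers of one origin. No gaster-restricted gene passed in gaster, against 0% of all genes tested, by edgeR's quasi-likelihood test, and none passed with DESeq2, against 0%. At an unadjusted p under 0.05 stood 17 of the 200 (9 higher and 8 lower in polygyne hosts), against 4.58% of all genes, and with DESeq2 21, against 5.37%. By direction 102 were higher and 98 lower, and 2 of the 200 passed a log2 fold change of 1 in either direction, against 1.81% of all genes. With only genes over 1 CPM in at least 6 libraries it was 2 of the 200, against 0.88% of all genes.

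The named genes of the host comparison overlapped between groups. SINVBB1_11558 had a gaster mean of 209 ± 45.0 CPM in mpBB and 142 ± 21.2 CPM in mBB (SD, n = 6 each). The mpBB libraries ran from 134 to 260.1 CPM and the mBB libraries from 119 to 168 CPM, and the log2 fold change was 0.54 ± 0.18 (adjusted p 0.99993, edgeR). SINVBB1_09942 averaged 521 ± 62.7 CPM in the mpBB group, against 637 ± 76.0 CPM in mBB, a log2 fold change of -0.30 ± 0.12 (adjusted p 0.99993, edgeR).

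The comparison of pBB with mpBB addresses the colony of origin, for SB/SB workers in polygyne hosts. No gaster-restricted gene passed in gaster, against 0% of all genes, by edgeR's quasi-likelihood test, and none passed with DESeq2, against 0.0518%. At an unadjusted p under 0.05 stood 10 of the 200 (5 higher and 5 lower), against 2.72% of all genes, and with DESeq2 11, against 3.38%. Of the 200, 133 were higher and 67 lower in pBB, with a median log2 fold change of 0.09 against 0.01 in the other eligible genes. Without replicate 8 of pBB and pBL the split was 121 and 79 and the median 0.04. With a covariate for workers numbered under 140 it was 147 and 53, with a median of 0.13. In that fit 19 of the 200 had an unadjusted p under 0.05 (edgeR), against 4.03% of all genes. Within workers numbered under and over 140 the split was 121 and 79 in each, with medians of 0.10 and 0.15. A log2 fold change past 1 was seen in 1 of the 200 in the main fit, against 2% of all genes. With only genes over 1 CPM in at least 6 libraries it was 1 of the 200, against 0.97% of all genes. The genotype and origin comparisons share the pBB libraries.

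The largest fitted decrease by origin was that of SINVBB1_10817. Its gaster level was 47.6, 111 and 226 CPM in the lowest, median and highest pBB library and 125, 321 and 562 CPM in mpBB. The ranges overlapped, and the log2 fold change was -1.44 ± 0.43 (adjusted p 0.9999, edgeR). The mBB gasters, of 115 to 569 CPM, overlapped mpBB, and the pBL gasters, of 45.7 to 207 CPM, overlapped pBB. SINVBB1_06709 went the other way, with a mean of 188 ± 43.8 CPM in pBB against 120 ± 25.4 CPM for mpBB (SD, n = 6 each), a log2 fold change of 0.66 ± 0.25 (adjusted p 0.9999, edgeR).

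**Figure D4:**
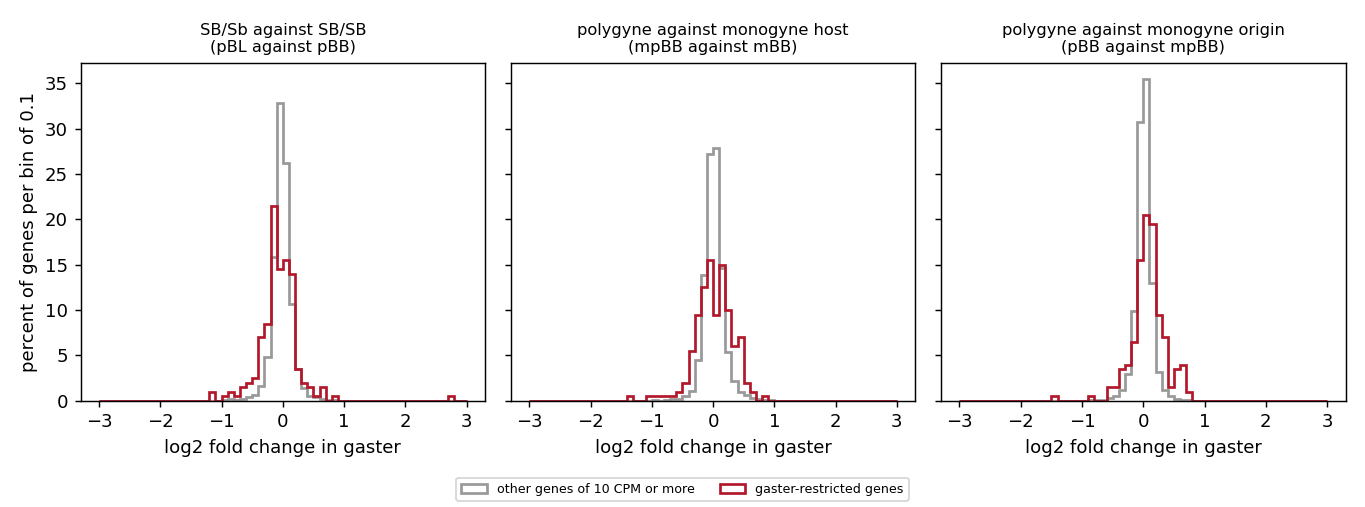
Distribution of log2 fold changes in gaster in the genotype, host and origin comparisons, as percent of genes per bin of 0.1, for the 200 gaster-restricted genes (red) and the other genes of at least 10 CPM in each gaster group (grey). The red curves are wider in all 3 comparisons, and their extremes are 2.71 by genotype (SINVBB1_09071) and -1.44 by origin (SINVBB1_10817).

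The precision of these comparisons was lower for the gaster-restricted genes than for others. The 95% interval of the log2 fold change lay within 1 in both directions for 152 of 200 by genotype, 151 by host and 149 by origin. These shares of 76.0%, 75.5% and 74.5% compare with 95% by genotype and by host and 95.6% by origin of the other eligible genes. The median SE was 0.257 against 0.131. For the remaining genes the interval reached beyond 1 in at least 1 direction.

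In brain 137 of the 200 had enough counts to be tested, and they passed through their higher brain counts. By edgeR's quasi-likelihood test none passed by genotype, against 0.516% of 12006 genes, nor by host or origin, against 0% in each. With DESeq2 none passed either, against 0.716%, 0.00833% and 0.00833% of all genes. At an unadjusted p under 0.05 stood 14 by genotype (all higher in pBL), 10 by host and 9 by origin, against 3.54%, 2.27% and 1.57% of all genes. With DESeq2 the counts were 17, 11 and 10, against 3.84%, 2.57% and 1.84%. By genotype 102 were higher and 35 lower in pBL. Without the 3 brains that lay apart, 58 were higher and 77 lower, so this direction rested on those libraries. Without brain pBB replicate 1 the count of called genes by genotype went from 0 to 1. That gene, SINVBB1_08291, was at 7.78 CPM in the omitted library. Its log2 fold change was 1.82 without it (adjusted p 0.0491, edgeR) and 0.62 with it (adjusted p 0.99999, edgeR), and the other alternatives gave an adjusted p of 0.802 to 1. A log2 fold change past 1 was fitted for 26, 14 and 13 of the 137 by genotype, host and origin, against 2.22%, 0.775% and 1.11% of all genes, at low counts.

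The named brain changes were of low levels. SINVBB1_08291 had a log2 fold change of 1.58 ± 0.58 by host, from 0.452 ± 0.211 CPM in mBB to 1.40 ± 0.693 CPM in mpBB, and SINVBB1_14465 one of -0.89 ± 0.40 (adjusted p 1 for both, edgeR). By origin SINVBB1_06635 had 1.80 ± 0.70 and SINVBB1_08010 had -1.22 ± 0.50 (adjusted p 0.9999 for both, edgeR). SINVBB1_06635 reached 3.98 CPM in pBB replicate 1 against a pBB median of 0.550 CPM, and without that library its log2 fold change was 0.93. By genotype SINVBB1_04759 averaged 7.22 ± 1.72 CPM in pBL against 9.35 ± 1.96 CPM for pBB, a log2 fold change of -0.34 ± 0.17 (adjusted p 0.99999, edgeR).

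The gaster-restricted genes varied more between workers of the same group than other genes did. The SD of log2(CPM + 0.5) among gasters of the same group had a median of 0.470 for the 200 and 0.230 for the 6230 other eligible genes. Of the 200, 196 were above the median of the others. An SD over 1 was seen in 22 of them, or 11%, and in 1.65% of the others. The highest gaster held a median of 3.44 times the lowest one for the 200 and 1.85 times for the others.

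The wider spread was also present among abundant genes. Among genes with a gaster mean of 100 CPM or more, the median SD was 0.470 for the gaster-restricted genes and 0.230 for the 1462 others. In the edgeR fit the median biological coefficient of variation was 0.313 in gaster, against 0.232 over all genes tested.

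The widest spread was that of SINVBB1_06115, with an SD of 3.42. In 22 of the 24 gasters it was among the abundant genes, at 878, 1952 and 3738 CPM in the lowest, median and highest. In pBB replicate 8 it had 1 count among 66.3 M, or 0.0151 CPM, and in pBL replicate 8 it had 8 counts among 62.6 M, or 0.128 CPM. For comparison, 3 counts correspond to 0.0453 and 0.0480 CPM in these libraries, so that the 8 counts of pBL replicate 8 are above that level and the 1 count of pBB replicate 8 is below it. Among the 6430 eligible genes, only those at 1 CPM or more in each of the other 22 gasters were searched. Of these, SINVBB1_06115 was the only 1 that lay, in both of these libraries, below 0.1 times its lowest level in the other 22. The libraries searched were picked for its low counts there.

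The genes listed beside SINVBB1_06115 in the files went with it. The 4 rows before it and the 2 rows after it had 0 counts in both libraries. Summed over the other 22 gasters they held 29710 (SINVBB1_11244), 79 (SINVBB1_11242), 444 (SINVBB1_06116a), 316 (SINVBB1_13543), 2230 (SINVBB1_15279) and 905 (SINVBB1_12811) counts. Of these 6, 5 had counts in all 22 of the other gasters. The next well-expressed rows on either side were at ordinary levels in both libraries. SINVBB1_10531, 9 rows before, had 1591 and 800 counts against 391 to 1706 in the others, and SINVBB1_10095, 8 rows after, had 1295 and 1229 against 405 to 1881.

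These neighbours were chosen after the values of SINVBB1_06115 had been seen, and whether file order follows the chromosomes is not given in the sources used here. The libraries came from the workers numbered 99 and 101, an SB/SB and an SB/Sb worker that share the replicate number 8 and a polygyne origin. No brain library of either worker was analysed here. What a shared replicate number marks is not given in the labels.

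SINVBB1_12643, SINVBB1_11662 and SINVBB1_14544 were next in spread, with SDs of 2.29, 1.73 and 1.72. Each was lower in gasters of workers numbered under 140, with means of 62.9, 58.1 and 366.7 CPM. Over 140 the means were 281.6, 212.7 and 1616.5 CPM. SINVBB1_12643 ran from 4.38 to 450.2 CPM over the gasters. Its lowest, median and highest level was 5.42, 90.2 and 377 CPM in mBB, and 4.38, 162 and 312 CPM in pBL. Each group thus held nearly the whole range, and the groups overlapped throughout.

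Some of the gaster-restricted genes varied together over workers, although the median correlation of all their pairs was near 0, at 0.0012. Of 19900 pairs, 564 had a correlation of 0.8 or more over the 24 gasters, or 2.83%, against 1.92% of pairs of other eligible genes. A further 138 pairs had -0.8 or less, and such pairs were not counted for the other eligible genes. Joining genes through every pair of 0.8 or more put 104 of the 200 into 13 sets of 2 or more, and left 96 in none. The sets were formed from these same values and are described without a test.

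The largest set had 35 genes, led in level by SINVBB1_01824 and SINVBB1_03221. Its geometric mean was 162 to 859 CPM, and together these genes took 1.28% to 6.44% of the counts of a gaster. SINVBB1_03221 ran from 1152 to 9720 CPM. The set differed with the individual number of the worker rather than with the group. In the 12 workers numbered over 140 it was at 601 to 859 CPM. In the 8 numbered under 140 whose brain was also sequenced it was at 162 to 287 CPM, and in the 4 numbered under 140 with a gaster library only at 319 to 764 CPM.

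**Figure D5:**
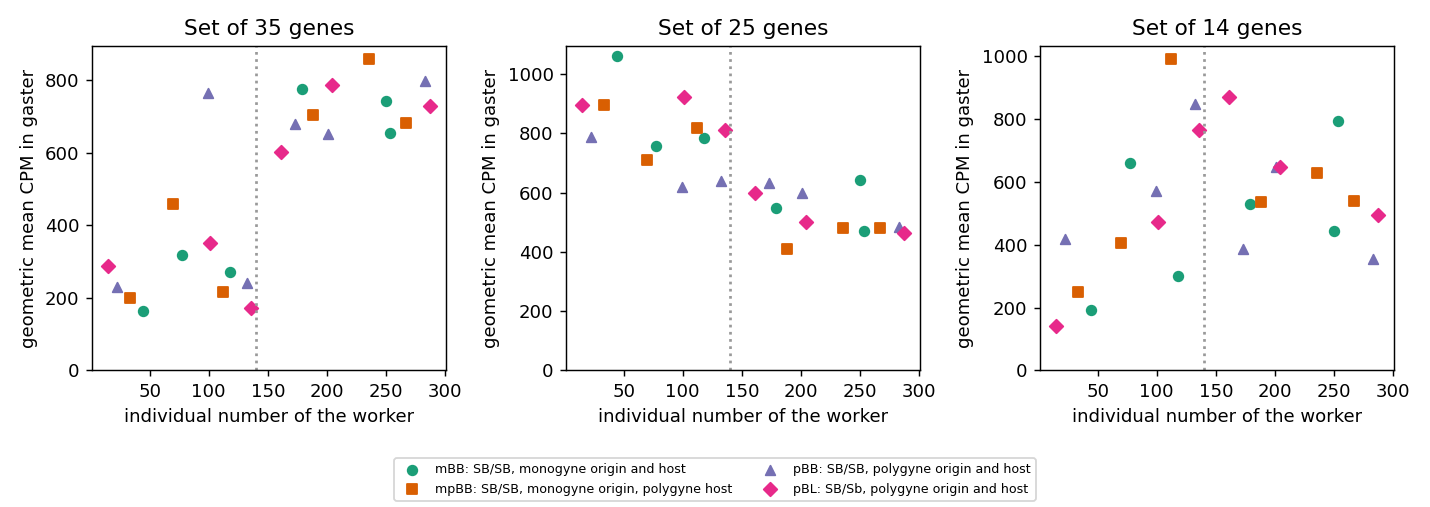
Geometric mean level (CPM) of the 3 largest co-varying sets in each gaster against the individual number of the worker, with groups as colours and symbols and a dotted line at 140. The set of 35 genes is at 162 to 764 CPM left of the line and 601 to 859 CPM right of it, the set of 25 genes is higher on the left, and the set of 14 genes spans both sides.

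The second set had 25 genes, led by SINVBB1_00811 and SINVBB1_00574, and moved against the first, with a correlation of -0.85 between the geometric means. It was at 640 to 1063 CPM in the 8 workers numbered under 140 with a brain library, 620 to 925 CPM in the 4 with a gaster library only, and 411 to 642 CPM in the 12 numbered over 140. The third had 14 genes, led by SINVBB1_14465 and SINVBB1_09869. It ran from 142 to 991 CPM among workers numbered under 140 and from 355 to 872 CPM among those over 140, and its correlation was 0.26 with the first set and -0.45 with the second.

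All 4 groups had 3 gasters on each side of the number 140, so that the sets were balanced over the groups. The first set averaged 487 ± 267, 519 ± 273, 560 ± 258 and 488 ± 252 CPM in mBB, mpBB, pBB and pBL (SD, n = 6 each). The division at 140 was chosen because earlier results showed gasters differing with this number, and what the number marks is not given in the labels. A time, a colony and a library batch cannot be told apart here.

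The number also separated the 200 genes more than others. Between the 2 parts 31 of the 200, or 15.5%, differed by over 1 on the log2 scale, 30 of them lower under 140, against 2.38% of the other eligible genes. SINVBB1_11394 was the 1 that was higher. For none of the 200 did the 2 parts separate fully, a count that was not made for the other eligible genes. Within the parts the median correlation was 0.72 under 140 and 0.27 over 140 in the first set, 0.60 and 0.62 in the second, and 0.91 and 0.57 in the third. With each gene centred within each part, 199 pairs, or 1% of them, had a correlation of 0.8 or more in place of 564, against 0.207% of pairs of other eligible genes. The excess of spread over other genes was present in both parts, with median SDs of 0.441 against 0.210 under 140 and 0.307 against 0.150 over 140.

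Gaster-restricted genes were often listed next to each other. Of the 200, 61 stood in 25 runs of adjacent file rows, or 30.5%. The 200 made up 1.23% of the gene rows and 3.11% of the eligible genes, which are shares of genes and not of genes in runs. An eligible gene stood in a row beside 158 of the 200. There were 19 runs of 2 genes, 3 of 3, 1 of 4 and 2 of 5. The 36 adjacent pairs had a median correlation over gasters of 0.659, and 44.4% of them reached 0.8. Among 3825 adjacent pairs of other eligible genes the median was 0.139 and 3.84% reached 0.8. Adjacent genes can be near-identical copies, for which separate levels are uncertain. Whether these are such copies was not tested.

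The runs of 5 had different patterns. The run from SINVBB1_00498 to SINVBB1_04925 had a median correlation of 0.88 among its genes. SINVBB1_04925 was at 608 to 2522 CPM in gaster and at brain group means of 0.0323 to 0.0894 CPM. The run from SINVBB1_03711 to SINVBB1_03710 had a median correlation of 0.83. SINVBB1_03711 was at 37.04, 97.7 and 535 CPM in the lowest, median and highest mBB gaster, at 39.6 to 293 CPM in pBB, and at 36.6 to 122 CPM in mpBB and 45.5 to 100.1 CPM in pBL.

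Among the runs of 3 or more genes, SINVBB1_00809, SINVBB1_00811 and SINVBB1_12777 had the highest median correlation, 0.96. SINVBB1_00811 had group means of 8261 to 9281 CPM in gaster. In brain its median was 5.31 to 8.19 CPM by group, but it reached 217 CPM in pBL replicate 1 and 98.3 CPM in mpBB replicate 11. SINVBB1_00809 was highest in the same 2 brains of these groups, at 76.9 and 35.6 CPM.

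In gaster the reverse-strand column held a median of 99.5% of the summed counts of both strand columns for the 200 genes. SINVBB1_10007 was the exception, with 0.80% there, as were 159 eligible genes under 50%. Its unstranded level was 115, 432 and 768 CPM in the lowest, median and highest gaster, and its test, which used the reverse-strand counts, covers few of its reads.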

How the data were processed

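The authors deposited raw counts of reads per gene for 28 brains and 24 gasters of single workers, as 3 columns (unstranded and each strand) per library. Per the submitters' processing notes, Trim Galore, STAR and edgeR were used; the sources used here do not give versions, genome build or annotation. Per the labels' protocols, brains were prepared with a SMARTer low-input kit without strand and gasters with a KAPA stranded kit. Levels are CPM of the unstranded column, relative to the library's counts in genes. The rows that name no gene held 58.4% to 74.7% of brain and 37.6% to 70.9% of gaster reads and were left out.

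Tests used R 4.3.3 and edgeR 4.0.16, with TMM scaling, edgeR's filter by group and a quasi-likelihood fit of all 4 groups of a tissue. Brain tests used the unstranded counts and gaster tests the reverse-strand counts. Benjamini-Hochberg adjustment ran over all 11574 genes tested in gaster and 12006 in brain, with a threshold of 0.05. DESeq2 1.42.0 was an alternative. The SE of a log2 fold change was derived from the F statistic. The tests were checked on simulated counts, drawn independently for each library. These held no effect of the replicate number or the individual number, so the check does not cover such effects. Replicates are single workers, and p-values set a group difference against the spread between them. As the workers of a group come from different colonies, that spread includes any difference between colonies. The main fits did not use the replicate number or the individual number.

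The genes described, and the lists and alternatives, were chosen with earlier results of these data known. Named genes were, per comparison and direction, the one with the smallest p, and otherwise the 5 highest in gaster and 2 in brain, the 3 largest tissue differences, those at the limit, the 4 widest in spread, the ends of the longest runs and the 2 leading genes of the largest set. Leading genes of the other sets, the run of 3, the neighbours of SINVBB1_06115, SINVBB1_10007 and SINVBB1_11394 were chosen after their values were seen. Sets joined all genes linked by a pair with a correlation of log2(CPM + 0.5) of 0.8 or more, so that members of a set can correlate less (down to 0.241 in the largest). Replicate numbers shared by pBB and pBL were taken to pair libraries. Deviations from the group means correlated in all 6 gaster pairs (0.122 to 0.590) and all 7 brain pairs (0.127 to 0.605). Libraries of mBB and pBB with the same number differ in origin and host. They also correlated in all pairs (0.00669 to 0.419 in gaster, 0.0333 to 0.400 in brain). Their mean was lower, at 0.203 and 0.235 against 0.375 and 0.351 for pBB with pBL. The correlation was thus not specific to pBB and pBL. In these groups a shared replicate number also put workers on the same side of the division by individual number. The replicate block takes up that division too.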

Additional observations from a re-analysis of the deposited data

Results flagged for a closer look

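In 12 of 136 groups of libraries tested, 1 library lay far from the others by Dixon's criterion, which chance meets in about 1 of 20 groups. None of these was explained here.

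The widest gaps were those of SINVBB1_06115 in gaster, at 0.0151 CPM in pBB replicate 8 against a median of 2433 CPM in the other pBB gasters, and at 0.128 CPM in pBL replicate 8 against 2567 CPM. SINVBB1_09071 was low in gaster pBB replicate 3, at 24.6 CPM against 141 CPM. SINVBB1_03710 was low in gaster pBL replicate 8, at 333 CPM against 567 CPM, and SINVBB1_11165 in gaster mBB replicate 5, at 2085 CPM against 3049 CPM. The set of 14 genes was low in gaster pBL replicate 1, with a geometric mean of 142 CPM against 648 CPM. The share of counts in the 200 genes was low in gaster pBB replicate 3, at 19.4% against 20.8%.

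In brain the summed level of the 200 genes was high in mBB replicate 4, at 444 CPM against 272 CPM, and in mpBB replicate 11, at 629 CPM against 284 CPM. SINVBB1_06635 was high in pBL replicate 2, at 3.50 CPM against 0.384 CPM, and SINVBB1_08291 in pBB replicate 1, at 7.78 CPM against 0.690 CPM. SINVBB1_04759 was low in brain mBB replicate 3, at 4.49 CPM against 7.92 CPM.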

How the results depend on the processing

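The alternatives were DESeq2, RLE factors, other filters, the unstranded gaster counts, the compared groups only, a covariate for and fits within workers numbered under and over 140, a replicate block, and leaving out libraries. In the comparison for which each gene was named, no fitted direction reversed. The signs of SINVBB1_09071 by host and origin did. Of the named genes, the call of SINVBB1_09071 in gaster by genotype changed, and 1 gaster-restricted gene was called with DESeq2, with the covariate for workers numbered under 140, with only the compared groups in the fit and with the replicate block. Over all genes the gaster genotype count was 108 with DESeq2, and 17 and 34 within workers numbered under and over 140, where 3 libraries per group remained. The brain genotype count was 12 and 38 within them. DESeq2 called 6 genes by origin in gaster, and 1 each by host and by origin in brain. Without brain pBB replicate 1, left out after its values had been seen, 1 gaster-restricted gene was called by genotype in brain, and 57 genes in all.

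With the replicate block the genotype counts were 63 in gaster and 67 in brain, and no other call of a named gene changed. No paired analysis was possible for host and origin because mpBB shares no replicate number with mBB or pBB. No gaster library lay apart, so that setting has no gaster value.

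Without their 10 most abundant members the genes held 11.8%, 11.9%, 12.4% and 11.8% of gaster counts in mBB, mpBB, pBB and pBL, and their summed mBB brain level was 203 CPM. With genes centred within workers numbered under and over 140, 199 pairs reached 0.8. Under other pseudocounts, floors, scalings or subsets of workers, 175 to 200 of the 200 genes were chosen again, fewest with a pseudocount of 0.1. Brain values of most of these genes rest on few counts, which limits their comparisons.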
